A study of Mus musculus with 20 samples.

Results

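The transcripts uc007ilt.2 and uc009iah.3 are a pair of mouse mRNAs whose footprints were over-represented on ribosomes captured through RPS25. They are 2 of the 9498 transcripts that the series lists in at least 1 of its tables. They were chosen as rows by identifier because both were called higher in the RPS25 capture in an earlier analysis of the same libraries. That choice rests on the RPS25 capture and the total libraries of the same line, so their values there are given as a description, with no test. The stated reason for the choice does not involve the capture through RPL22, the capture through RPL10A or the polysome RNA-seq, which were tested. Earlier results of those libraries were known when the pair was chosen, so these tests may not be fully independent of the choice. uc009iah.3 appears in all 4 tables of the series, and uc007ilt.2 in those of the Rps25-3xFLAG and Rpl22-3xHA lines. The level of uc007ilt.2 in the 3xFLAG-Rpl10a line and in the polysome pools was not analysed here. The files do not pair their UCSC identifiers with gene names, and 0 of the 2 matched the reference tables, so neither gene's name, position, function or sequence is given.

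All cells were E14 mouse embryonic stem cells, a pluripotent line grown with leukemia inhibitory factor, and all received 100 µg/ml cycloheximide, which halts elongating ribosomes, for 1 min before harvest. Ribosome profiling (Ribo-Seq) used 3 lines, each with 1 tagged allele of a ribosomal protein gene at its own locus (3xFLAG-Rpl10a, Rps25-3xFLAG or Rpl22-3xHA), with 2 total and 2 capture libraries per line. The other allele of each line is untagged, so captured ribosomes are those that took up the tagged copy. Capture used anti-FLAG beads for RPL10A and RPS25 and an anti-HA antibody for RPL22, whose lysis buffer lists no heparin. Polysome RNA-seq used wild-type cells transfected with control siRNA or with Rpl10a siRNA, with 2 libraries for each siRNA and pool. mRNAs carrying 4 or more ribosomes made up the heavy pool, and the rest of the gradient made up the light pool. The Rpl22-3xHA total libraries are total by title, yet their antibody label is that of the capture. Markers of embryonic stem cells and the level of Rpl10a after knockdown were not analysed here, since identifiers carry no gene names.

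A ribosome consists of a small subunit, which reads the mRNA, and a large subunit, which forms the peptide bond. RPS25 is a protein of the small subunit's head and is known for its part in initiation on some viral internal ribosome entry sites. RPL10A is a large-subunit protein of the L1 stalk, and RPL22 is a large-subunit protein that mice can lack and survive. Ribo-Seq counts the mRNA fragments that ribosomes shield from RNase, so a capture ratio compares how much of an mRNA's footprints sits on tagged ribosomes with how much sits on all ribosomes. A polysome gradient sorts mRNAs by the number of ribosomes they carry, so a heavy pool holds the mRNAs with more ribosomes each.

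Footprint values are RPKM (reads scaled to transcript length and library size), which can be compared between transcripts. RNA-seq values carry the header RPM (reads scaled to library size) and are not scaled to length. Ribo-Seq libraries summed to between 1082511 and 1201737 RPKM with medians of 23.7 to 25.4, and RNA-seq libraries to between 943664 and 1067209. Values are printed to 1 decimal and hold no counts, so read depth is unknown. Replicates of a group correlated across transcripts with r from 0.973 to 0.995 (Pearson, log2 values). No label ties replicates to separate cultures, so p-values reflect spread between libraries that may be purely technical.

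In the RPS25 capture, uc007ilt.2 stood at 154.5 and 158.0 RPKM in the 2 capture libraries, against 51.3 and 48.1 in the total libraries of the line. The capture libraries agreed closely and lay far above the totals. Means were 156 ± 2.47 against 49.7 ± 2.26 RPKM (SD, n = 2 each), a 3.14-fold difference, and the 4 possible pairs of a capture and a total library gave 3.01 to 3.28-fold. uc009iah.3 stood at 252.3 and 222.6 RPKM in capture libraries, against 99.4 and 91.8 in total libraries. Its groups did not overlap either, though its capture libraries were further apart. Means were 237 ± 21.0 against 95.6 ± 5.37 RPKM (SD, n = 2 each), a 2.48-fold difference, with pairs of libraries from 2.24 to 2.75-fold. In this contrast capture lay above total in both libraries for 27.9% of all transcripts.

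On the log2(RPKM + 1) scale the ratio of uc007ilt.2 was 1.63 (SE 0.11) and that of uc009iah.3 was 1.30 (SE 0.11), ranks 6 and 25 from the highest of 8779 transcripts. Within a total library, uc007ilt.2 lay at the 69.3 and 67.7 percentile of all listed transcripts, and within a capture library at the 87.7 and 87.5 percentile. The corresponding percentiles of uc009iah.3 were 81.6 and 80.7 in totals and 92.3 and 91.1 in captures. A position within a library does not depend on how that library was scaled.

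The choice of the pair depended on a threshold that few transcripts reached. The test was limma, a linear model with variances moderated over all transcripts, and the call an adjusted p (Benjamini-Hochberg) under 0.05. It called 4 of 8779 transcripts (0.0456%), 3 of them higher, and the pair are 2 of these 3. The other higher call was uc007fhi.1, with 3.5 and 4.5 RPKM in totals and 29.6 and 34.3 in captures. Its log2 ratio, 2.72 (SE 0.20), was larger than that of either member. The call in the lower direction was uc009vfb.1 (log2 ratio −3.46, SE 0.25). Just inside the threshold was uc009iah.3 itself. Just outside was uc009dsm.2, with 41.5 and 37.2 RPKM in totals and 126.9 and 103.8 in captures (log2 ratio 1.52, SE 0.14), a larger ratio with a larger spread. Without a variance trend the 4 limma calls became 0. With the trend, 1832 transcripts (20.9%) had an unadjusted limma p below 0.05.

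**Figure D1:**
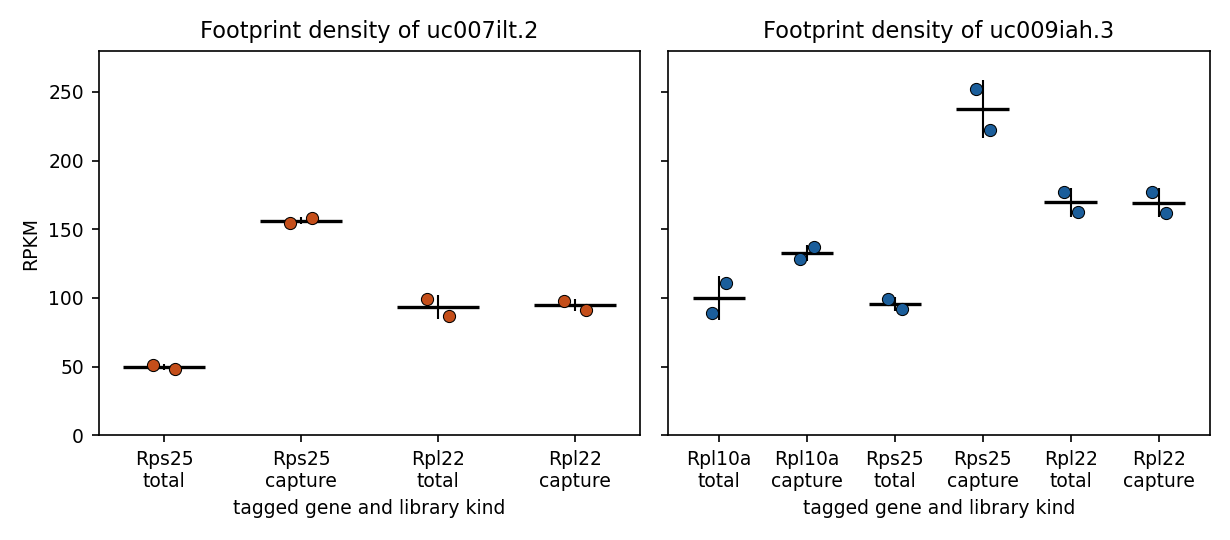
Footprint density (RPKM, linear axis from 0) of uc007ilt.2 and uc009iah.3 in each Ribo-Seq library that lists them, as points, with the mean of 2 libraries as a horizontal bar and the SD as a vertical line. The RPS25 capture holds the highest values of both transcripts, at 156 and 237 RPKM on average, and the RPL22 capture lies level with its total.

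The capture through RPL22 asked whether the same mRNAs are over-represented on ribosomes selected by another protein, and neither transcript was. uc007ilt.2 stood at 97.9 and 91.6 RPKM in RPL22 captures and at 99.5 and 87.1 in the totals of the line. The capture values lay between the total values. Its log2 ratio was 0.024 (SE 0.10, 95% interval −0.20 to 0.25, limma adjusted p = 0.907). uc009iah.3 stood at 177.0 and 161.9 RPKM in captures and at 177.1 and 162.3 in totals. Its libraries of the 2 kinds were nearly equal, with a log2 ratio of −0.0022 (SE 0.092, 95% interval −0.21 to 0.20, limma adjusted p = 0.991). No transcript of the table was called in limma (0 of 8588, 0%), while 1734 (20.2%) had an unadjusted p below 0.05. Were the total libraries captures too, as their antibody label would have it, ratios near 0 would not compare captured with all ribosomes.

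In the RPL10A capture, which used the same beads and tag as the RPS25 capture, uc009iah.3 was higher by a smaller amount that did not pass the test. Captures stood at 128.4 and 137.0 RPKM and totals at 88.8 and 111.2. Both captures lay above both totals, as they did for 28.0% of all transcripts in this comparison. Means were 133 ± 6.08 against 100.0 ± 15.8 RPKM (SD, n = 2 each), a 1.33-fold difference with pairs of libraries from 1.15 to 1.54-fold. The log2 ratio was 0.41 (SE 0.17, 95% interval 0.025 to 0.80, limma adjusted p = 0.185), rank 1452 of 8505 transcripts, of which 124 were called (1.46%), 72 of them higher (0.847%). When the 3 lines were fitted together (12 libraries and 7605 shared transcripts, with 1 spread for every line), limma put the same ratio at an adjusted p of 0.0433. Calls were far more common in that fit, at 1302 of the 7605 transcripts for this capture.

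The ratio of uc009iah.3 did not differ detectably between the RPL10A and RPL22 captures. The difference was 0.41 on the log2 scale (SE 0.19, 95% interval 0.00060 to 0.83, limma adjusted p = 0.202) in a fit of the 8 libraries of these lines over 7840 shared transcripts, of which 141 were called (1.80%). Differences that involve the RPS25 ratio are given without a test, since the pair was chosen on it. The RPS25 ratio of uc009iah.3 exceeded its RPL10A ratio by 0.89 (rank 129 of 8090 transcripts listed in both lines) and its RPL22 ratio by 1.30 (rank 16 of 8049). For uc007ilt.2 the RPS25 ratio exceeded the RPL22 ratio by 1.61 (rank 3 of 8049). Each line's table was normalized on its own. Line, antibody, buffer and processing tools changed together between RPL22 and the FLAG captures, so their parts cannot be told apart.

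**Figure D2:**
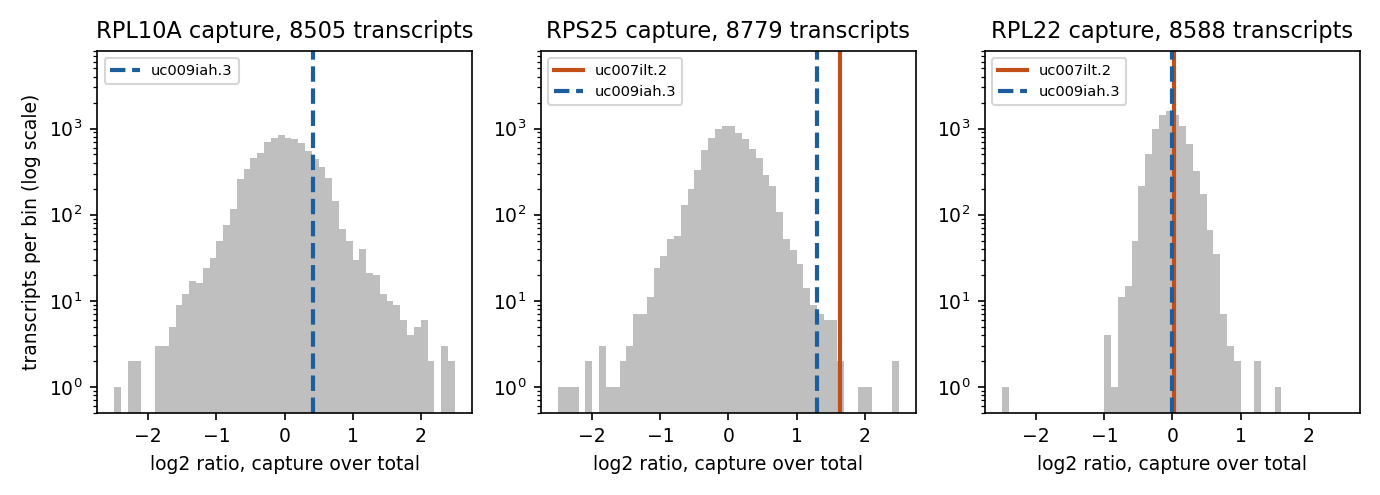
Histograms of the log2 ratio of capture over total (horizontal axis) for all transcripts of each line, on a log count axis, with values beyond 2.5 in either direction drawn at the edge of the axis, and vertical lines at uc007ilt.2 (solid) and uc009iah.3 (dashed). Both transcripts stand in the upper tail in the RPS25 capture, at 1.63 and 1.30, and near the centre in the RPL22 capture, while uc009iah.3 lies at 0.41 in the RPL10A capture.

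Ordered by mean footprint density, the groups of uc009iah.3 ran from Rps25-3xFLAG total (95.6 RPKM) and 3xFLAG-Rpl10a total (100.0) through RPL10A capture (133), RPL22 capture (169) and Rpl22-3xHA total (170) to RPS25 capture (237). The lowest pair overlapped, as did the RPL22 pair, and the other neighbours in this order did not. For uc007ilt.2 the order was Rps25-3xFLAG total (49.7 RPKM), Rpl22-3xHA total (93.3), RPL22 capture (94.8) and RPS25 capture (156), with overlap between the groups of the Rpl22-3xHA line alone. In both transcripts the total libraries of the Rps25-3xFLAG line were thus lower than those of the Rpl22-3xHA line. Between lines, fewer cells with an mRNA, fewer footprints per cell and differences of processing cannot be told apart. Only the Rpl22-3xHA footprints were processed with STAR in addition. Relative to the library's median transcript, uc007ilt.2 stood at 2.09 ± 0.0890-fold in the former and 3.69 ± 0.372-fold in the latter, and uc009iah.3 at 4.02 ± 0.214-fold and 6.70 ± 0.460-fold (SD, n = 2 each). These levels come from tables normalized separately and carry no test.

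The 2 transcripts did not keep a fixed proportion to each other. uc009iah.3 had 1.94 and 1.91 times the footprint density of uc007ilt.2 in the Rps25-3xFLAG totals. In the RPS25 captures the figure was 1.63 and 1.41. In the Rpl22-3xHA line it ran from 1.77 to 1.86 over totals and captures. The RPS25 captures had the lowest proportions of the 8 libraries, as uc007ilt.2 has the larger ratio there, which the choice of the pair used.

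The polysome arm asked how mRNAs are spread between light and heavy pools after Rpl10a siRNA. Under control siRNA, uc009iah.3 stood at 102.1 and 100.3 in light pools and at 79.4 and 61.3 in heavy pools (deposited RPM values). Both heavy libraries lay below both light libraries, as for 41.5% of transcripts, with the heavy pair further apart. Means were 101 ± 1.27 in light and 70.4 ± 12.8 in heavy pools (SD, n = 2 each), and the log2 difference of heavy against light was −0.53 (SE 0.15, limma adjusted p = 0.0143). Values are scaled within a library, so a side compares shares of the pools, not where most copies of an mRNA sit. By share, the mRNA was on the light side, as were 2134 of 8084 transcripts by the same test (26.4%). This call was lost without either control light library or without replicate 2 of the control heavy pool (adjusted p from 0.0583 to 0.101, n = 1 left in that group, limma).

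With Rpl10a siRNA the order of these scaled values turned. uc009iah.3 stood at 112.7 and 97.2 in light and at 152.1 and 144.4 in heavy pools. Both heavy libraries now lay above both light ones, as for 44.4% of transcripts. Means were 105 ± 11.0 and 148 ± 5.44 (SD, n = 2 each), and the log2 difference of heavy against light was 0.50 (SE 0.15, limma adjusted p = 0.0196), on a side that 31.6% of transcripts shared. The call was lost without replicate 2 of the Rpl10a siRNA light pool (adjusted p = 0.123, limma) or replicate 1 of its heavy pool (adjusted p = 0.0659, limma). Of the 2134 transcripts called on the light side with control siRNA, 39 were called on the heavy side with Rpl10a siRNA, and uc009iah.3 is 1 of these 39. They make up 0.482% of all transcripts.

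**Figure D3:**
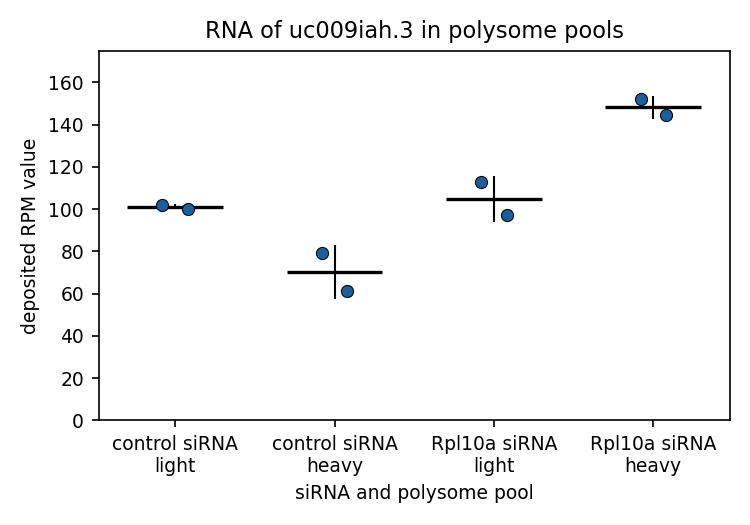
Deposited RPM values (linear axis from 0) of uc009iah.3 in each RNA-seq library, as points, with the mean of 2 libraries as a horizontal bar and the SD as a vertical line. Light pools sit near 101 and 105 under either siRNA, while heavy pools go from 70.4 with control to 148 with Rpl10a siRNA.

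The change lay in the heavy pool. There, uc009iah.3 was 2.11-fold higher with Rpl10a siRNA than with control siRNA (log2 difference 1.08, SE 0.15, limma adjusted p = 0.00275), with pairs of libraries from 1.82 to 2.48-fold. Its Rpl10a siRNA libraries lay above both control libraries, as for 38.1% of transcripts. A rise in the heavy pool was common, being called for 2164 of 8084 transcripts (26.8%). A rise as large as this was less common: 261 transcripts (3.23%), uc009iah.3 among them, were called with at least its difference. The rise stayed called without any 1 of the 8 libraries, with log2 differences of 0.89 to 1.26. In the light pool the difference was 0.048 (SE 0.15, 95% interval −0.28 to 0.38, limma adjusted p = 0.869), with overlapping libraries, while 6.12% of transcripts were called there in either direction.

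The difference between those changes, the polysome shift (the heavy-against-light difference with Rpl10a siRNA less that with control siRNA), was 1.03 for uc009iah.3 (SE 0.21, 95% interval 0.56 to 1.50, limma adjusted p = 0.0357). This is a move toward the heavy pool, called for 231 of 8084 transcripts (2.86%) in this fit. With same-numbered replicates modelled as a block, that share was 18.1%, or 22.3% with the block within siRNA. The median shift of all transcripts was 0.088, so uc009iah.3 lay 0.94 above it, at rank 43 of 8084. Shift and pool contrasts use the same libraries and are not separate evidence. Without any 1 library other than replicate 2 of the Rpl10a siRNA heavy pool the shift was not called (adjusted p from 0.0756 to 0.168, log2 shift 0.84 to 1.21, limma), and without a variance trend its adjusted p was 0.0521 (limma). Values are scaled within a library, so a shift is relative to other mRNAs of a pool.

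**Figure D4:**
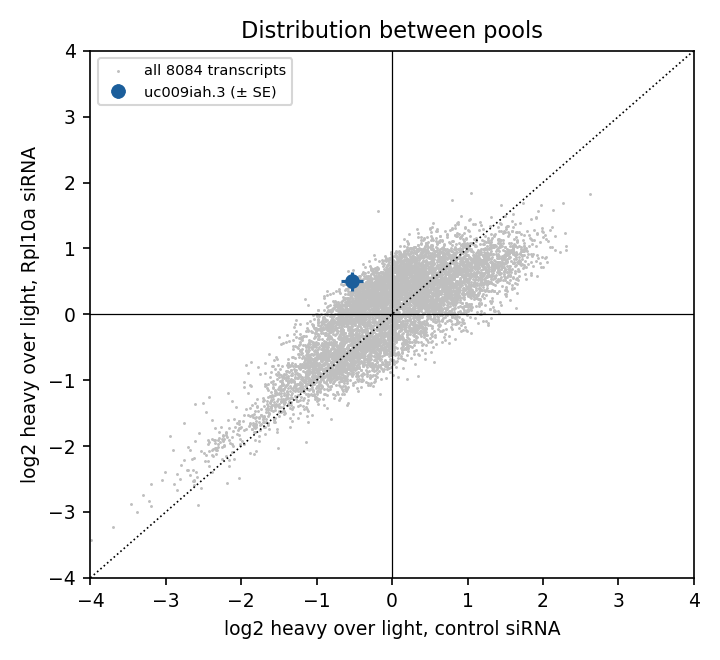
Log2 difference of heavy over light pools with control siRNA (horizontal axis) and with Rpl10a siRNA (vertical axis) for all 8084 transcripts in grey, with 2 of them outside the axes, and uc009iah.3 in blue with its SE. The dotted diagonal marks equal values, and uc009iah.3 lies above it, at −0.53 and 0.50. Its quadrant holds mRNAs with lower scaled values in heavy than in light pools with control siRNA, and higher with Rpl10a siRNA.

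The transcripts whose footprints most resembled the pair over the Ribo-Seq libraries were sought by Pearson correlation of log2(RPKM + 1), centred within each line's table. The libraries of a table share their normalization, and the RPS25 capture dominates the pattern, so these are descriptions. Both members were chosen as high in that capture, so a likeness between them follows in part from the choice. Over 8 libraries, uc008srf.1 (r = 0.997) and uc008mqj.1 (r = 0.993) were most like uc007ilt.2 among 4024 transcripts, and uc009iah.3 came next (r = 0.993). Their RPS25 ratios were smaller than that of uc007ilt.2: uc008srf.1 had 43.6 ± 0.849 RPKM in totals and 70.1 ± 0.283 in captures, and uc008mqj.1 33.0 ± 1.48 and 73.2 ± 0.354 (SD, n = 2 each). Over 12 libraries, uc007lpg.2 (r = 0.964) and uc008gos.2 (r = 0.944) were most like uc009iah.3 among 3802 transcripts. Of all transcripts compared, 149 had r above 0.9 with uc007ilt.2 over 8 libraries and 17 with uc009iah.3 over 12.

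The RNA-seq values of uc007lpg.2 and uc008gos.2 had no part in that ranking. Both rose in the heavy pool with Rpl10a siRNA, by log2 differences of 0.82 (SE 0.13, limma adjusted p = 0.00381) and 0.73 (SE 0.17, limma adjusted p = 0.0100), a direction called for 26.8% of transcripts. Their shifts toward the heavy pool, 0.58 and 0.65, were not called in the fit without a replicate block (limma adjusted p = 0.0875 and 0.119). Both shifts were called with a block. uc009dsm.2, the transcript just outside the threshold of the choice, went the other way. It was called higher in the RPL10A capture (log2 ratio 2.06, SE 0.19, limma adjusted p = 0.00383), and with Rpl10a siRNA it fell by 1.02 in the heavy pool (SE 0.12, limma adjusted p = 0.00212) and its shift was −0.85, toward the light pool (SE 0.18, limma adjusted p = 0.0377). Those directions were called for 22.7% and 3.57% of transcripts. In these 2 transcripts, uc009iah.3 and uc009dsm.2, a large RPS25 ratio went with opposite polysome shifts. Without a variance trend 0 transcripts had a called shift, so neither call held there.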

How the data were processed

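The authors deposited RPKM values per transcript for each of 12 Ribo-Seq libraries, per the file headers. For each of 8 RNA-seq libraries they deposited a signal headed RPM, per the file headers. Its sums differ between libraries, and any factor applied beyond library size is not stated. Per the submitters' processing notes, tools were, with the mm10 build, cutadapt and Bowtie2, and STAR in addition for the Rpl22-3xHA and RNA-seq libraries. The filter on transcripts is not stated.

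From these files, log2(value + 1) was tested two-sided with limma (version 3.58.1, R version 4.3.3), its variances moderated along a trend with level, and p-values adjusted by Benjamini-Hochberg over all transcripts of a table. Each capture was fitted with its own 4 libraries, and RNA-seq contrasts came from 1 fit of 8. A fold on this scale understates the change of low transcripts. The fit was tested on simulated data drawn independently for each library, which does not cover deviations shared by same-numbered replicates. Groups follow the sample titles. The members, tests and the rule for similar transcripts (the 2 highest correlations per member, at or above the median level) were chosen with earlier results of these data known. Alternatives were pseudocounts of 0.5 and 5, no trend, a minimum mean of 5, aligned medians, equal totals, a replicate block, other sets of libraries and leaving out each library. Replicates shared at most 1.53% identical values. Gene lists and cell markers were not analysed here.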

Additional observations from a re-analysis of the deposited data

Results flagged for a closer look

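The effect of Rpl10a siRNA on uc009iah.3 differed between polysome pools by an interaction contrast: the log2 difference was 1.08 in the heavy and 0.048 in the light pool, and the shift between them was 1.03 (SE 0.21, limma adjusted p = 0.0357). Its heavy pool was higher in both Rpl10a siRNA libraries than in both control libraries, and its light pools overlapped. Without a variance trend the shift was not called (limma adjusted p = 0.0521), and without any 1 library it ran from 0.84 to 1.21. Groups of 2 libraries are too small for a check of single outlying samples.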

How the results depend on the processing

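Of the pair's results, the rise of uc009iah.3 in the heavy pool kept its call under all 8 alternatives of scale, filter or model and all 8 omissions of a library. A joint fit of the 3 lines, which changes both the transcripts tested and the spread, brought the RPL10A ratio of uc009iah.3 (0.41) to a call. A pseudocount of 5 lowered the RPS25 ratio of uc007ilt.2 to 1.56. The near-zero RPL22 ratios changed sign, to −0.067 for uc007ilt.2 with equal totals and 0.027 for uc009iah.3 with aligned medians. Without a trend the shift of 1.03 lost its call.

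Without any 1 library, RPS25 ratios ran from 1.59 to 1.68 (uc007ilt.2) and 1.21 to 1.39 (uc009iah.3), narrow ranges the choice favours. RPL22 ratios ran from −0.071 to 0.12 and −0.066 to 0.062. For uc009iah.3, the RPL10A ratio ran from 0.25 to 0.57, the RPL10A minus RPL22 difference from 0.25 to 0.58, heavy against light from −0.71 to −0.35 (control) and 0.39 to 0.60 (Rpl10a siRNA), the light-pool change from −0.058 to 0.15 and the shift from 0.84 to 1.21. A group of 1 library is assumed to vary like the others.

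Replicate numbers share no stated culture or gradient and were not taken to pair samples. Same-numbered deviations correlated at −0.0036 (RPL10A), 0.0077 (RPS25) and 0.18 (RPL22) and from 0.40 to 0.62 among RNA-seq groups. A replicate block left all fitted values of the pair and all their calls in place, with the shift of uc009iah.3 at an adjusted p of 0.000924, or 1.39e-05 with the block within siRNA (limma). The background of that shift also changed. Toward heavy, 1463 transcripts (18.1%) were called with the block and 1801 (22.3%) within siRNA, against 231 (2.86%) without. The shifts of uc007lpg.2 and uc008gos.2 were then called too (adjusted p = 0.0270 and 0.0266 with the block, 0.0125 and 0.00698 within siRNA, limma).

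Counts of called transcripts moved more. For RPL10A, 124 became 38 without a trend, 202 with the block, 1302 in the joint fit over shared transcripts and 0 without any 1 of the 4 libraries. For RPS25, 4 became 0 without a trend, 199 in the joint fit and 0 or 1 with a library left out. For RPL22, 0 became 692 with the block and 1 without replicate 2 of the capture. For RPL10A minus RPL22, 141 became 11 without a trend, 65 with the block and 0 to 765 with a library left out. For the heavy pool, 4000 became 1500 without replicate 2 of control heavy and 2561 without replicate 1 of Rpl10a siRNA heavy. For the light pool, 495 became 260 without a trend, 1912 with the block, 749 from its 4 libraries alone and 0 to 987 with a library left out. For the shift, 520 became 0 without a trend, 2520 or 2980 with the blocks and 0 to 2070 with a library left out.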

Other observations

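uc007ilt.2 and uc009iah.3 belong to 75 transcripts that were at least 2-fold higher in the RPS25 capture, a set taken from the values and therefore not tested. Among the 1756 transcripts of highest level in that line, the pair's RPS25 ratios ranked 1 and 2. The other ratios above that of uc009iah.3 came from transcripts of lower level. Shares over all transcripts, given below, are not matched for level. Listed transcripts reached at least 5.0 RPKM in 1 or more libraries of their Ribo-Seq table, so some may be listed through captures alone. In the RPL10A capture 48 of the 75 were listed, with a median log2 ratio of 0.72 against 0.0012 over all transcripts, 40 above 0 and 9 called higher (18.8%, against 0.847% of all). uc009iah.3, at 0.41, lay below that median. In the RPL22 capture 41 were listed, with a median of −0.020 against −0.034 over all transcripts, and 18 were above 0. In RNA-seq 44 were listed. With control siRNA 16 of them were called on the light side and 3 on the heavy side, against 26.4% and 28.0% of all transcripts, and with Rpl10a siRNA 15 and 3, against 22.1% and 31.6%. In the heavy pool 9 were called higher and 4 lower with Rpl10a siRNA, against 26.8% and 22.7% of all, and in the light pool 5 higher and 0 lower, against 2.51% and 3.61%. In the shift 1 was called toward heavy, which is uc009iah.3, and 1 toward light, which is uc009dsm.2, against 2.86% and 3.57% of all transcripts. The median shift of the 44 was 0.049, against 0.088 over all transcripts.

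Every transcript of the RNA-seq table is also in the table of the 3xFLAG-Rpl10a line. uc007ilt.2 is 1 of 444 transcripts that the Rps25-3xFLAG and Rpl22-3xHA tables share and the 3xFLAG-Rpl10a table does not list. It follows that 0 of these 444 are in the RNA-seq table.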
